A study of Mus musculus with 12 samples.

Results

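The complement cascade genes outside C1q that were examined are C1s1, C1ra, Serping1, C3, C4b, Cd55 and Cd59a, taken as every probe set that the array annotation assigns to 1 of these genes and to no other. The rule found 8 of the 45101 probe sets on the array, and they represented 5 of the 7 genes and 5 of the 18193 genes that have a probe set of their own: 1 probe set each for C1s1, C1ra and Serping1, 3 for Cd55 and 2 for Cd59a. C4b was represented only by a probe set it shares with its near-identical copy C4a, which is given apart, and C3 is not analysed here. All 8 probe sets passed the filter on low values described below.

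Complement is a cascade of plasma and tissue proteins that tags targets for removal and can perforate membranes. In the classical pathway the recognition molecule C1q carries the proteases C1r and C1s. C1r activates C1s, and C1s cleaves C4 and C2 to form the enzyme that acts on C3. The C1 inhibitor, made by Serping1, blocks both proteases, and the membrane proteins CD55 and CD59 protect host cells by speeding the decay of the C3-cleaving enzyme and by blocking the membrane attack complex.

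Messenger RNA was profiled with the Affymetrix Mouse Genome 430 2.0 array in microvascular fragments, that is, isolated pieces of small vessels, of C57BL/6 mice aged 2 months. The 4 groups, of 3 arrays each, were Notch3 knockout cerebral, littermate control cerebral, Notch3 knockout cerebellar and littermate control cerebellar vessels. Controls are labelled wildtype. Each genotype had 3 mice, and arrays of both regions that carry one replicate number are treated as one mouse. Notch3 is a receptor of the mural cells (smooth muscle cells and pericytes) of small vessels. The sources used here do not give how the line was made or how the fragments were isolated. All values are log2 expression values, and 3.27, the median of all values in the table, serves as the level of background.

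Array medians lay between 3.24 and 3.30, and within a group any pair of arrays had a correlation of 0.991 to 0.996 over the 11716 genes tested. The brighter Notch3 probe set read 2.48 to 3.58 in knockout arrays and 10.84 to 12.02 in control arrays, and the other 2.21 to 3.76 in knockout and 6.74 to 8.21 in control arrays, so the arrays matched their genotype labels. The endothelial markers, 17 of 18 of them tested, had a summed level of 18.01 to 18.17 (log2 of the sum of linear values) in knockout arrays and 17.98 to 18.06 in control arrays. Xist was near background in 1 mouse of each genotype, knockout mouse 2 and control mouse 3, and both regions matched in 6 of 6 mice.

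The regions upstream of C1s1 and C1ra are printed because these partner proteases are the members with the lowest knockout values relative to control, and because Notch receptors act on genes through the DNA-binding protein RBPJ, whose core motif reads TGGGAA on one strand and, on the opposite strand, it reads TTCCCA. The windows run from 250 bases before to 50 after an annotated start site and come from RefSeq on GRCm38.p6, with capitals marking the motif. The C1s1 window is chr6:124542272-124542571 on the minus strand, and the C1ra window is chr6:124512371-124512670 on the plus strand.
C1s1: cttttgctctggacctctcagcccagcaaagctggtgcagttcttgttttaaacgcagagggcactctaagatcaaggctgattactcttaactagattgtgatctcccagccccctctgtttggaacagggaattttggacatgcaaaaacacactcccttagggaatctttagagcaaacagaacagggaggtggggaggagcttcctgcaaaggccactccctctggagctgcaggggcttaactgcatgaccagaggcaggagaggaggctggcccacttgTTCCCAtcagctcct
C1ra: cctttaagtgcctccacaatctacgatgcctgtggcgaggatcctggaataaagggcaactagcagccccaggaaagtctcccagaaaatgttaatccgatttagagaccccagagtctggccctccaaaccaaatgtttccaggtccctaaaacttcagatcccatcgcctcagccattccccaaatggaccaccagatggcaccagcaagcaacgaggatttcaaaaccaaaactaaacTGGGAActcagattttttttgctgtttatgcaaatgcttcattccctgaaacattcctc
Each window held 1 match, 35 bases after the start site in C1s1 and 9 bases before it in C1ra (written -9 relative to the start). A second, overlapping C1s1 window, for a start site farther upstream, held 0, as did the windows of Cd55 and Cd59a. No window was available for Serping1 or C4b. The motif occurs in 25.6% of the 32851 windows in the RefSeq table, so these matches are a description, and binding was not tested.

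C1s1, the protease that cleaves C4 and C2, was the member with the largest change. Its probe set read 6.22, 6.93 and 6.18 in knockout cerebral arrays, against 9.82, 10.16 and 9.62 in control cerebral arrays. In cerebellar vessels it read 6.75, 6.53 and 6.18 in knockout arrays and 9.76, 9.76 and 9.84 in control arrays. Every knockout array lay far below every control array in both regions, yet all knockout arrays stayed well above 3.27.

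The log2 fold change of C1s1 was -3.42 in cerebral vessels (SE 0.21, 95% interval -3.89 to -2.95, n = 3 arrays per group, limma adjusted p = 9.56e-06), which is 10.7-fold lower in the knockout. In cerebellar vessels it was -3.30 (SE 0.21, interval -3.78 to -2.83, limma adjusted p = 1.09e-05), or 9.88-fold lower. Averaging the regions of each mouse, so that it counts once, gave -3.36 (SE 0.15, 3 mice per genotype, limma adjusted p = 0.000247). C1s1 ranked 7 from the lowest of all 11716 log2 fold changes in cerebral and 10 in cerebellar vessels. Its low level in knockouts was known when these genes were chosen, so these values are the starting point for its relatives and not independent support. Its cerebellar minus its cerebral knockout effect was 0.12 (interval -0.55 to 0.79, limma adjusted p = 0.9992). Between regions, cerebellar minus cerebral was 0.04 in knockouts (interval -0.43 to 0.51) and -0.08 in controls (interval -0.55 to 0.40). The probe set carries the array maker's suffix for probes that can match several transcripts, so a contribution of the copy C1s2, which is not analysed here, cannot be told apart. In vessel fragments, fewer cells of a type and less RNA per cell cannot be told apart either.

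**Figure D1:**
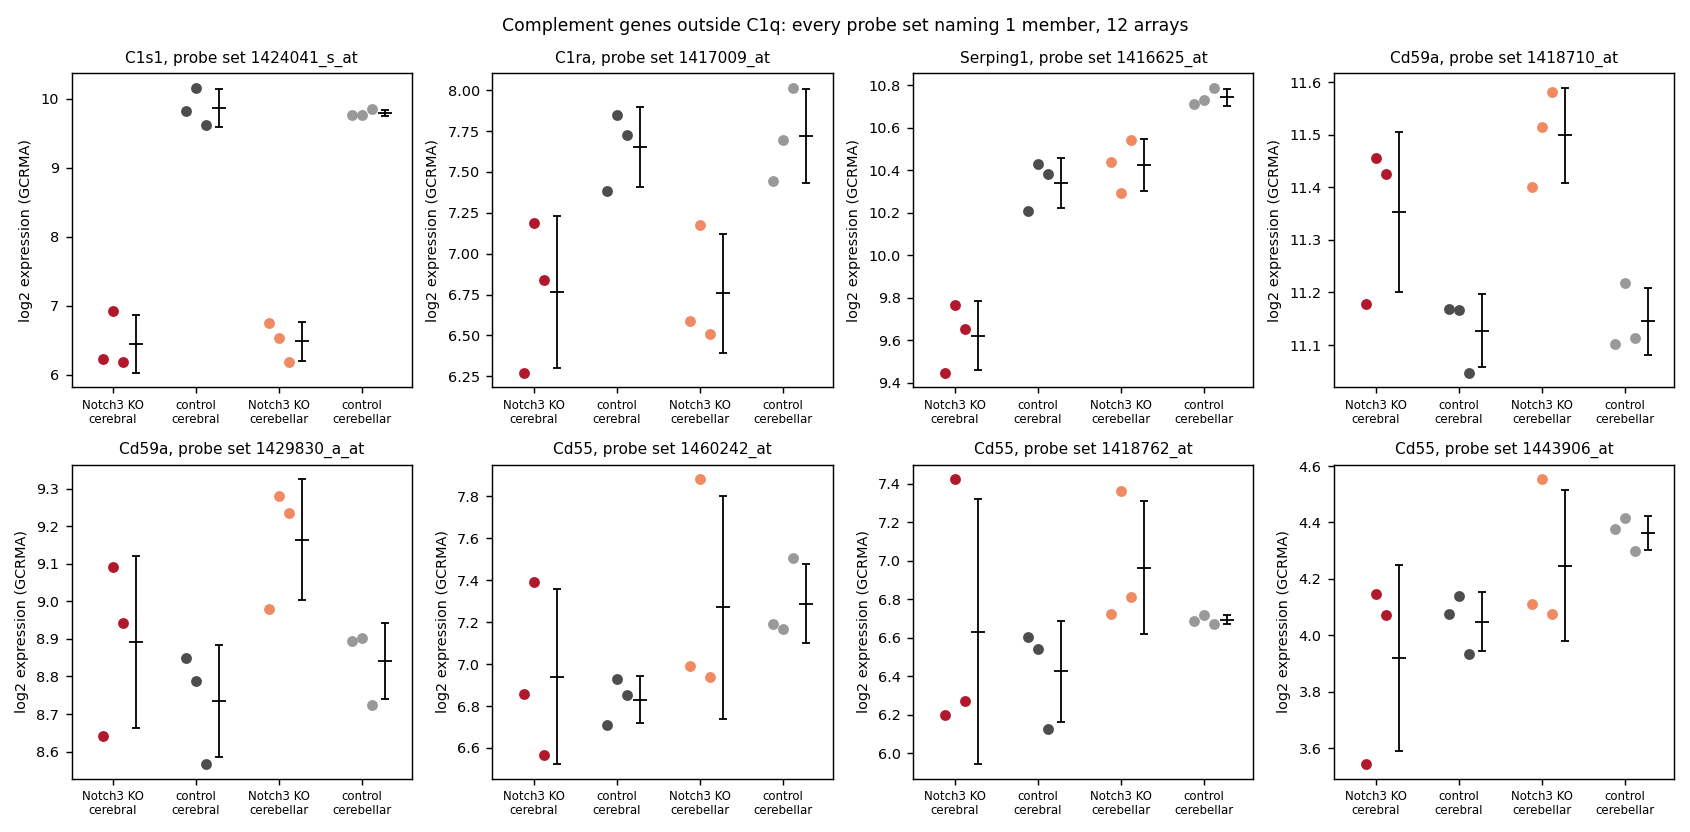
Log2 expression in each of the 12 arrays for the 8 probe sets, with knockout (red, orange) left of control (grey) for cerebral and then cerebellar vessels; points run by replicate number, dashes with bars are means with SD, and each panel has its own scale that does not start at 0. C1s1 drops by more than 3 log2 units in both regions, while C1ra and Serping1 shift by under 1 unit and Cd55 spreads with knockout replicate 2.

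C1ra, which encodes the protease that activates C1s, was lower in every knockout array than in any control array, but the difference did not pass the threshold. It read 6.27, 7.19 and 6.84 in knockout cerebral arrays, against 7.38, 7.85 and 7.73 in control cerebral arrays. In cerebellar vessels it read 6.59, 7.18 and 6.51 in knockout arrays and 7.45, 7.69 and 8.02 in control arrays. The knockout arrays of replicate 2 were the highest of their group in both regions.

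The log2 fold change of C1ra was -0.89 in cerebral vessels (SE 0.26, interval -1.46 to -0.32, limma unadjusted p = 0.0059 and adjusted p = 0.0713) and -0.96 in cerebellar vessels (SE 0.26, interval -1.53 to -0.39, limma adjusted p = 0.0708). Per mouse it was -0.92 (SE 0.22, limma adjusted p = 0.0840). The direction held under every alternative tried, but the adjusted p moved with single arrays. A call was gained under 3 of 17 alternatives in cerebral vessels, 4 of 17 in cerebellar vessels and 3 of 15 per mouse. Without knockout cerebral replicate 1 the value was -0.64 (limma adjusted p = 0.214), without knockout cerebellar replicate 3 it was -0.84 (adjusted p = 0.230), and without knockout mouse 1 the mean of regions was -0.76 (adjusted p = 0.179). C1ra passed without knockout mouse 2: without its array the cerebral value was -1.10 (limma adjusted p = 0.0332), the cerebellar value -1.17 (adjusted p = 0.0435), and without the mouse the mean of regions -1.13 (adjusted p = 0.0328). With Xist as a covariate the cerebral and cerebellar limma adjusted p were 0.0196 and 0.0159. Per mouse the limma adjusted p was 0.0390 with Xist and 0.0488 with array weights. In both regions and per mouse the 95% intervals of C1ra and C1s1 did not overlap. C1s1 was already known to be low when chosen and both genes were read on the same arrays, so their difference was not tested.

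A second probe set matches C1ra together with its copy C1rb. It read 8.86, 9.20 and 8.68 in knockout cerebral arrays, against 9.31, 9.61 and 9.12 in control cerebral arrays, and 8.68, 9.05 and 8.60 in knockout cerebellar arrays, against 9.19, 9.21 and 9.30 in control cerebellar arrays. The cerebral groups overlapped and the cerebellar groups did not. Its log2 fold changes were -0.43 (SE 0.16) and -0.46 (SE 0.16), and neither passed when every probe set was tested on its own (limma adjusted p = 0.181 and 0.196), where 5.11% of all probe sets passed in cerebral and 3.49% in cerebellar vessels.

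Serping1, which encodes the inhibitor of both proteases, fell in cerebral vessels. It read 9.45, 9.77 and 9.65 in knockout cerebral arrays, against 10.21, 10.43 and 10.38 in control cerebral arrays. In cerebellar vessels it read 10.44, 10.30 and 10.54 in knockout arrays and 10.71, 10.73 and 10.79 in control arrays. The groups did not overlap in either region, and the distance between them was smaller in cerebellar vessels.

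The log2 fold change of Serping1 was -0.72 in cerebral vessels (SE 0.10, interval -0.93 to -0.50, limma adjusted p = 0.00166), 1.64-fold lower, and it kept its call under all 18 alternatives. In cerebellar vessels it was -0.32 (SE 0.10, interval -0.53 to -0.11, limma adjusted p = 0.104) and was not called. The mean of both regions per mouse fell by 0.52 (SE 0.06, 3 mice per genotype, limma adjusted p = 0.0110), a call lost without control mouse 2 (-0.50, adjusted p = 0.0524). The difference between regions was 0.40 (SE 0.14, limma unadjusted p = 0.0145 and adjusted p = 0.9992), so a weaker effect in cerebellar vessels is not shown.

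Serping1 was also the 1 member called between regions, in knockouts. Cerebellar minus cerebral was 0.80 in knockouts (SE 0.10, limma adjusted p = 0.00175) and 0.40 in controls (SE 0.10, adjusted p = 0.0607). With the mouse as a random replicate block, which uses the pairing of the regions, the control value passed (adjusted p = 0.0156). Its mean was 10.42 in knockout cerebellar and 10.74 in control cerebellar vessels, and 9.62 in knockout cerebral and 10.34 in control cerebral vessels. Knockout cerebellar and control cerebral arrays, which are neighbours in level, overlapped. The other members were not called between regions: cerebellar minus cerebral was 0.33 in knockouts and 0.46 in controls for Cd55, 0.15 and 0.02 for Cd59a, and -0.0096 and 0.07 for C1ra. The other Cd55 probe sets gave 0.33 and 0.33 in knockouts and 0.27 and 0.32 in controls, none called. Pericyte markers were called higher in cerebellar vessels in 11 of 13 cases in knockouts and 7 of 13 in controls. For fibroblast markers this held in 7 of 18 and 4 of 18. In either direction 6.8% and 2.29% of all genes were called. The part of these cells in Serping1 was not tested.

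Cd59a, the blocker of the membrane attack complex, had slightly higher values in knockout vessels. Its brighter probe set read 11.18, 11.46 and 11.43 in knockout cerebral arrays, against 11.17, 11.17 and 11.05 in control cerebral arrays. In cerebellar vessels it read 11.40, 11.51 and 11.58 in knockout arrays and 11.10, 11.22 and 11.11 in control arrays. The groups did not overlap, although knockout cerebral replicate 1 nearly touched the control arrays.

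The log2 fold change of Cd59a was 0.35 in cerebellar vessels (SE 0.08, interval 0.17 to 0.54, limma adjusted p = 0.0422), where it rose, and 0.23 in cerebral vessels (SE 0.08, interval 0.04 to 0.41, adjusted p = 0.156), where it was not called. Per mouse it was 0.29 (SE 0.07, limma adjusted p = 0.103). The cerebellar call is weak: it was lost under 12 of 18 alternatives, with adjusted p from 0.0300 to 0.159 over the 18, and among those 12 were the runs without each of the 3 control and 3 knockout cerebellar arrays (log2 fold change 0.31 to 0.40). A second probe set read 8.64, 9.09 and 8.94 in knockout cerebral arrays, against 8.85, 8.79 and 8.57 in control cerebral arrays, and 8.98, 9.28 and 9.23 in knockout cerebellar arrays, against 8.90, 8.90 and 8.72 in control cerebellar arrays. It overlapped between genotypes in cerebral vessels only. Its log2 fold change was 0.32 in cerebellar vessels and 0.16 in cerebral vessels, and neither was called (limma adjusted p = 0.242 and 0.563).

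Cd55, the decay accelerator, was not called in any comparison. The brightest of its 3 probe sets read 6.86, 7.39 and 6.57 in knockout cerebral arrays, against 6.71, 6.93 and 6.85 in control cerebral arrays. It read 6.99, 7.88 and 6.94 in knockout cerebellar arrays, against 7.19, 7.17 and 7.50 in control cerebellar arrays. Knockout replicate 2, the knockout mouse without Xist, was the highest knockout array in both regions on all 3 probe sets.

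The log2 fold change of Cd55 was 0.11 in cerebral (interval -0.47 to 0.69) and -0.02 in cerebellar vessels (interval -0.59 to 0.56; limma adjusted p = 0.871 and 0.985). The sign turned with the scaling between arrays in cerebellar vessels, and without knockout mouse 2 the mean of both regions was -0.22. The other probe sets gave 0.21 and -0.13 in cerebral and 0.27 and -0.12 in cerebellar vessels. A second probe set read 6.20, 7.43 and 6.27 in knockout cerebral arrays, against 6.61, 6.54 and 6.13 in control cerebral arrays, and 6.72, 7.36 and 6.81 in knockout cerebellar arrays, against 6.69, 6.72 and 6.67 in control cerebellar arrays. The dimmest read 3.54 to 4.55 in knockout arrays and 3.93 to 4.42 in control arrays. For the brightest probe set the intervals run no lower than -0.59 and so do not reach the change of C1s1.

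C4b, the substrate of C1s, lies on chromosome 17 within 20 Mb of Notch3, as does its copy C4a, and the only probe set matching it matches both. It read 5.93, 6.88 and 7.09 in knockout cerebral arrays, against 7.09, 6.91 and 7.29 in control cerebral arrays, and 6.20, 6.57 and 6.44 in knockout cerebellar arrays, against 6.36, 5.63 and 6.63 in control cerebellar arrays. The groups overlapped in both regions. The log2 fold changes were -0.46 (SE 0.31, interval -1.15 to 0.23) and 0.20 (SE 0.31, interval -0.50 to 0.89), and neither was called with every probe set tested on its own (limma adjusted p = 0.472 and 0.835).

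**Figure D2:**
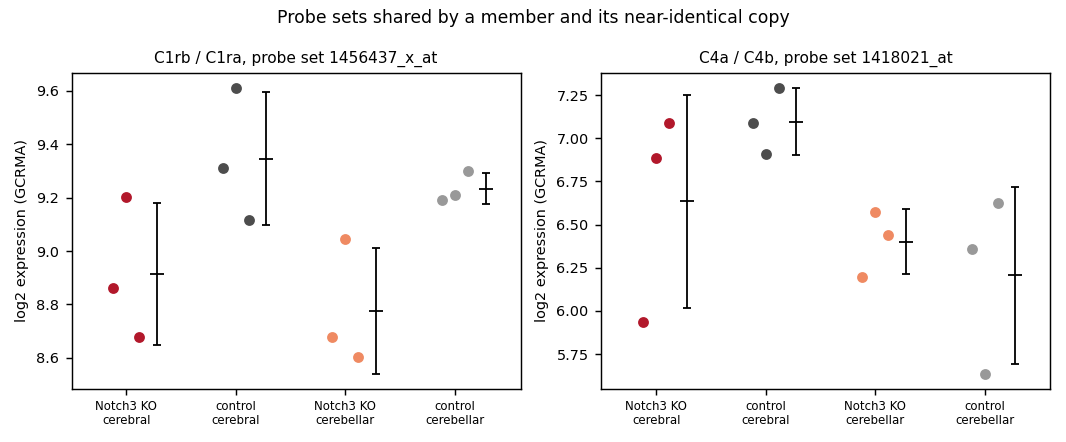
Log2 expression in the 12 arrays for the 2 probe sets that match a member and its near-identical copy (C1ra with C1rb, C4b with C4a), with knockout left of control within each region; dashes with bars are means with SD and the scales do not start at 0. The shared C1ra probe set shifts by -0.43 and -0.46, and the C4 probe set overlaps between genotypes in both regions.

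Leaving out C1s1, from which the question starts, 1 of its 4 tested relatives was called in cerebral vessels, Serping1, which was lower. Of all genes tested there 6.38% were called, 3.93% lower and 2.45% higher. In cerebellar vessels 1 of 4 was called, Cd59a, which was higher, against 4.22% of all genes, 3.17% lower and 1.06% higher. Per mouse 1 of 4 was called, Serping1, against 4.03% of all genes and 3% lower. Knockout and control arrays did not overlap for 3 of the 4 relatives in each region, 2 lower (C1ra and Serping1) and 1 higher (Cd59a). In cerebral vessels this held for 24.4% of all genes, 14.3% lower and 10.1% higher, and in cerebellar vessels for 22.1%, 11.7% lower and 10.4% higher. The median log2 fold change of the 4 relatives was -0.30 in cerebral and -0.17 in cerebellar vessels, against -0.01 and 0.01 over all genes tested; 4 genes are few, and nothing is read from these shares. Being lower and called in both regions, as were 2.34% of all genes, held for C1s1 and for 0 of the 4 relatives by limma, although C1ra and Serping1 had an unadjusted p under 0.05 in both. Between regions 1 of 5 was called in knockouts (6.8% of all genes) and 0 of 5 in controls (2.29% of all genes; limma unadjusted p was under 0.05 for Serping1). These fits do not use the pairing of regions within a mouse. With the mouse as a random replicate block 1 of 5, Serping1, was called in each genotype. Of all 11716 genes, 1947 were then called in knockouts and 966 in controls. The cerebellar minus the cerebral knockout effect was called for 0 of 5 by limma, with Serping1 the 1 member at an unadjusted p under 0.05, against 0.0427% of all genes.

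**Figure D3:**
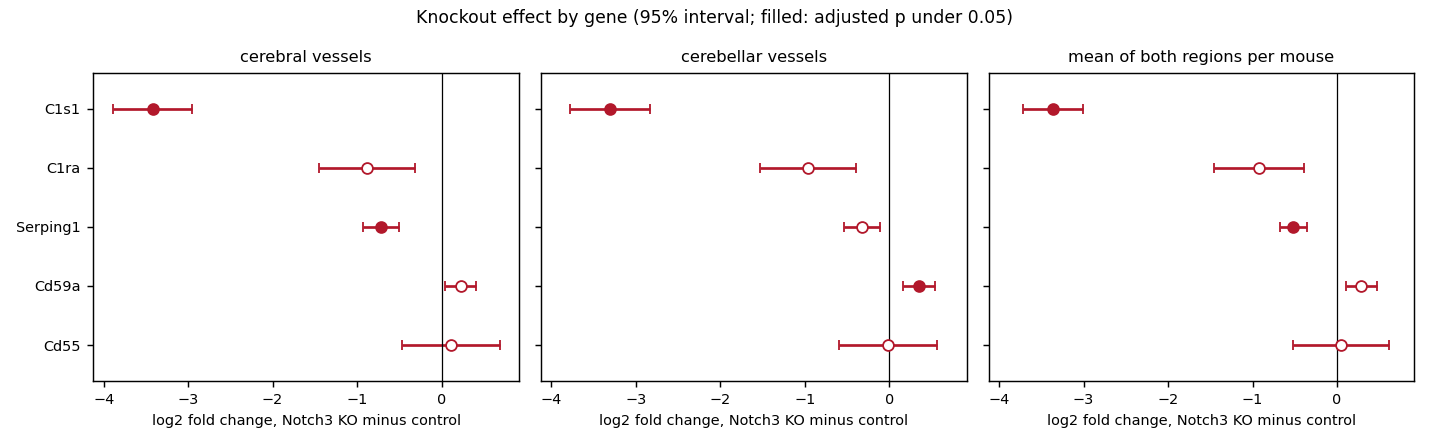
Log2 fold change of Notch3 knockout over control with its 95% interval for the 5 genes tested, in cerebral vessels, in cerebellar vessels and averaged over both regions of each mouse; filled points have an adjusted p under 0.05. C1s1 sits near -3.4 in all 3 panels, and no other interval reaches below -1.53.

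Other complement genes were drawn from a list of 55, of which 45 were named on the array, 23 passed the filter and 22 lay at or under 3.27 in every array. In cerebral vessels 3 of 23 rose, 1 fell and 19 were not called, with a median log2 fold change of 0.05, where 2.45% of all genes rose and 3.93% fell. Of the chains of C1q, which carries C1r and C1s, C1qa rose by 1.01 (SE 0.21, limma adjusted p = 0.0189) and C1qc by 0.91 (SE 0.21, adjusted p = 0.0283), while C1qb was at 0.45 (adjusted p = 0.107). C1qa read 14.12, 13.66 and 14.03 in knockout cerebral arrays, against 12.93, 12.58 and 13.27 in control cerebral arrays, with no overlap. C1qc read 13.76, 13.33 and 13.81 in knockout cerebral arrays, against 12.80, 12.34 and 13.01 in control cerebral arrays, again with no overlap. C5ar1, the receptor for the fragment C5a, read 4.96, 4.18 and 4.44 in knockout cerebral arrays, against 3.91, 3.51 and 3.68 in control cerebral arrays, and rose by 0.83 (SE 0.17, adjusted p = 0.0155). Colec12, a scavenger receptor of the collectin family, read 7.78 to 8.13 in knockout cerebral arrays, against 8.43 to 8.82 in control cerebral arrays, and fell by 0.63 (SE 0.13, adjusted p = 0.0185).

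Itgam was at 1.19 in cerebral vessels and Itgb2, with which it forms complement receptor 3, at 0.99 (limma adjusted p = 0.0585 and 0.0664). C3ar1, the receptor for the fragment C3a, was at 0.91 (adjusted p = 0.105), and none of these passed. Cr1l, a regulator that like Cd55 acts on the C3-cleaving enzyme, was at -0.0045. In cerebellar vessels limma called 0 of 23, against 4.22% of all genes, with 3 at an unadjusted p under 0.05. Per mouse it called 0 of 23, against 4.03% of all genes, with 5 at an unadjusted p under 0.05. C1qa was at 0.48 in cerebellar vessels (limma adjusted p = 0.283). Cerebellar minus cerebral knockout effects were called for 0 of 23 by limma, with 3 at an unadjusted p under 0.05. For C1qa this value was -0.53 (limma adjusted p = 0.9992). A response confined to cerebral vessels is therefore not shown. The 4 cerebral calls rest on few arrays: 2 remained in number without control cerebral replicate 1, 0 without control replicate 2, 1 without knockout replicate 1 and 1 without knockout replicate 3. Fitting the 6 cerebral arrays alone left 0, against 7 with the replicate block.

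**Figure D4:**
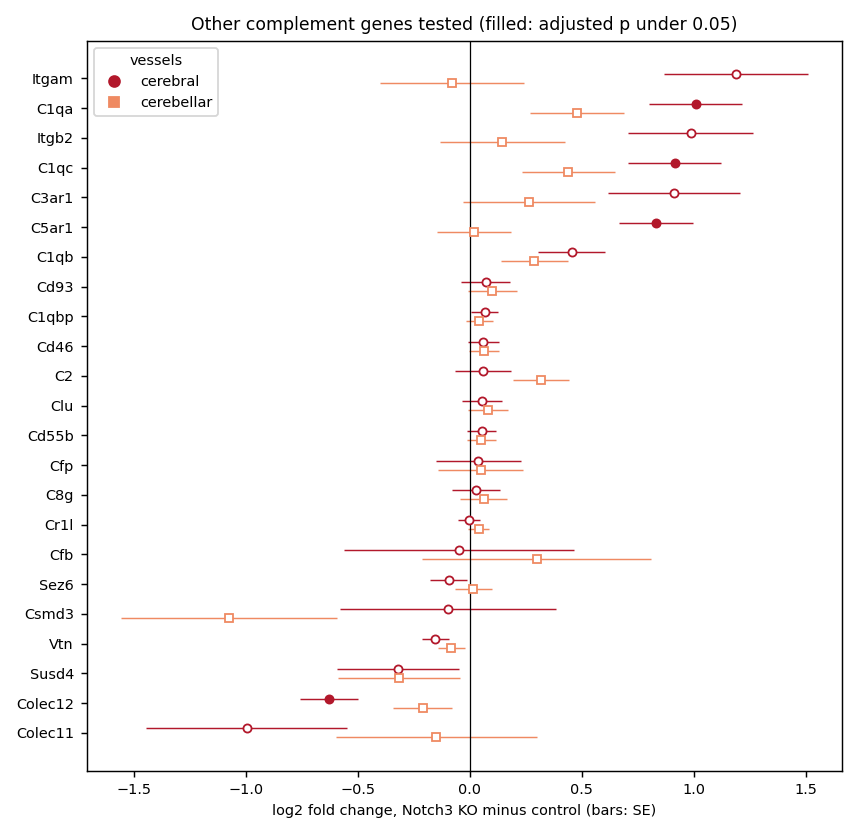
Log2 fold change of Notch3 knockout over control with its SE for the 23 other complement genes that passed the filter, in cerebral (circles) and cerebellar (squares) vessels, ordered by the cerebral value; filled symbols have an adjusted p under 0.05. C1qa, C1qc and C5ar1 are filled above 0 and Colec12 below 0 in cerebral vessels, and no cerebellar symbol is filled.

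Markers of some cell types also differed between genotypes, and those of others did not. Smooth muscle markers fell in 14 of 16 cases in each region, with a median log2 fold change of -1.03 in cerebral and -1.11 in cerebellar vessels, and their summed level was 15.63 to 15.79 in knockout cerebral arrays and 16.40 to 16.64 in control cerebral arrays. It was 15.72 to 15.90 in knockout cerebellar arrays and 16.57 to 16.86 in control cerebellar arrays. Pericyte markers, Notch3 among them, fell in 9 of 13 cases in cerebral and 7 of 13 in cerebellar vessels, with medians of -0.91 and -0.66. Their summed level was 16.34 to 16.39 in knockout cerebral arrays, against 16.57 to 16.71 in control cerebral arrays, and 16.70 to 16.82 in knockout cerebellar arrays, against 16.98 to 17.13 in control cerebellar arrays. The part of mural markers in the values of C1s1, C1ra and Serping1 was not tested.

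Fibroblast markers, of the cells around larger vessels and in the meninges, did not move one way: 1 of 18 rose and 1 fell in cerebral vessels, and 3 rose and 1 fell in cerebellar vessels. Col3a1, a fibrillar collagen, rose in both (0.71 and 0.82, limma adjusted p = 0.0255 and 0.0167), and Dpt, a matrix protein, fell by 1.22 in cerebellar vessels (adjusted p = 8.94e-08). Their summed level was 15.09 to 15.33 in knockout cerebral arrays and 15.04 to 15.33 in control cerebral arrays, and 15.57 to 15.62 in knockout cerebellar arrays, against 15.33 to 15.54 in control cerebellar arrays. Microglia markers rose in 8 of 17 cases in cerebral vessels (median 0.82) and in 0 of 17 in cerebellar vessels (median 0.11; 0 at an unadjusted p under 0.05 by limma). Their summed level was 17.26 to 17.79 in knockout cerebral arrays, against 16.77 to 17.12 in control cerebral arrays, and 16.64 to 16.83 in knockout cerebellar arrays, against 16.56 to 16.76 in control cerebellar arrays. The part of microglia in the C1q and receptor values was not tested.

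Of the other markers, endothelial genes were called in 0 of 17 cases in each region (2 at an unadjusted p under 0.05 by limma in each), and choroid plexus genes in 0 of 10 (0 at that level in each). Border macrophage and leukocyte markers were called in 0 of 12 (3 and 0 at that level), oligodendrocyte markers in 0 of 5 (1 and 1). Of 13 astrocyte markers 1 fell in each region, Atp1b2, while 8 had positive values in cerebral and 11 in cerebellar vessels, with medians of 0.09 and 0.51 (4 and 5 at that level). Of 8 neuron markers 1 fell in each region, while 5 had positive values in cerebral and 6 in cerebellar vessels, with medians of 0.02 and 0.28 (2 and 3 at that level).

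The profile of C1s1 over the 12 arrays, centred on its mean, was closest to those of 5 genes, by the root mean square difference in log2 units. These were Susd5, a protein with a sushi domain (0.43), Slc22a2, an organic cation transporter (0.43), Srl, a calcium-binding protein of the sarcoplasmic reticulum (0.47), Gpr20, an orphan receptor (0.48), and Tmem242, a transmembrane protein (0.49). None of the 5 is a complement gene. They were picked by likeness over these same 12 arrays, so low values in knockout arrays follow from the choice. Their log2 fold changes ran from -3.21 for Susd5 to -2.59 for Srl in cerebral vessels and from -3.45 for Susd5 to -2.40 for Tmem242 in cerebellar vessels. The knockout arrays of Slc22a2 lay under 3.27, so its change is not exact, and a second probe set of Tmem242 went the other way (0.74 and 1.03). Slc22a2 and Tmem242 lie on chromosome 17, as does Notch3, and the part of this location in their values was not tested. Serping1 was closest to Grtp1 (0.099), Limd1 (0.12) and Slco3a1 (0.14), which were at -0.71, -0.74 and -0.50 in cerebral vessels. In cerebellar vessels they were at -0.32, -0.55 and -0.28, and Limd1 was called there (limma adjusted p = 0.00232). A second probe set of Grtp1 gave -0.12 in cerebral vessels. Cd59a was closest to B3gnt2 (0.070), Herc4 (0.073) and Paqr7 (0.077). The genes close to Serping1 and Cd59a were picked in the same way, so their like values also follow from the choice.

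**Figure D5:**
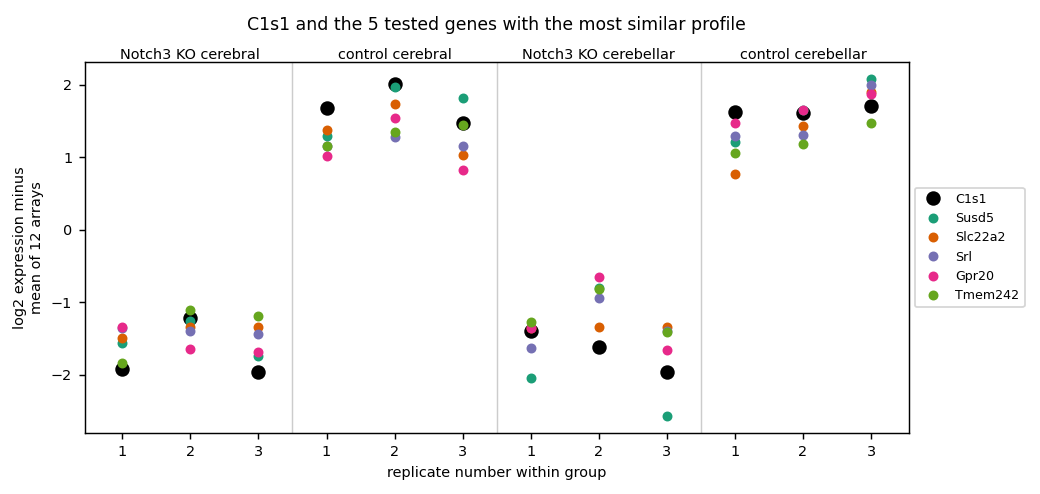
Log2 expression minus the gene's mean over the 12 arrays for C1s1 (large black points) and the 5 genes closest to it, by replicate number within the 4 groups. All 6 genes lie below 0 in the 6 knockout arrays and above 0 in the 6 control arrays, which follows from choosing the 5 by likeness to C1s1.

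C1s1 and C1ra are next to each other on chromosome 6 in the mouse gene table (GRCm38.p6). Among the 10 tested genes on either side of C1s1, 1 of 20 was called in cerebral vessels, against 6.38% of all genes tested. This was Clec4a3, a lectin of myeloid cells, which rose by 1.50 (SE 0.30, limma adjusted p = 0.0152). In cerebellar vessels 0 of 20 were called, against 4.22% of all genes tested. With 20 genes, nothing is read from these counts. The nearest tested genes on the C1ra side after it were Pex5 (-0.10 and -0.17 in cerebral and cerebellar vessels) and Cd163 (0.01 and 0.30). Those on the other side were Lpcat3 (0.05 and 0.01), Emg1 (0.07 and 0.05) and Phb2 (0.09 and 0.18). None of these 5 was called.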

How the data were processed

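Small vessel fragments of cerebrum and cerebellum from 3 Notch3 knockout and 3 littermate control mice were measured on 12 arrays. The deposited table holds log2 signals of probe sets that the authors summarised with GCRMA 2.32.0, per the submitters' processing notes. They carry no detection calls. The small number of arrays limits precision.

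Probe sets were named from the platform annotation (34945 with 1 gene, 932 with several, 9211 with none). Probe sets entered if 3 or more arrays of 12 read above 3.27, the overall median, and the brightest probe set naming 1 gene stood for it, which left 11716 genes. Tests used limma 3.58.1 on R 4.3.3 (lmFit, eBayes, two-sided, Benjamini-Hochberg over all genes, threshold 0.05; called means past it): 4 group means over 12 arrays, or the mean of both regions per mouse. On simulated arrays for the cerebral comparison of 11716 genes, 92 of 100 changes of 1 log2 unit and 99 of 100 changes of 3 were recovered, with 7 false calls among the other genes.

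The members and lists were chosen with earlier results of these data known. Named were Notch3, all member probe sets, called genes of the complement list, the closest profiles and the neighbours of C1s1; C1qb, Itgam, Itgb2, C3ar1 and Cr1l were added after their values were seen. Deviations from the group means correlated between the regions of a mouse (r of 0.371 to 0.705), which pairs them, but not in every pair between genotypes (r of -0.17 to 0.26).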

Additional observations from a re-analysis of the deposited data

How the results depend on the processing

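Filters, probe set rules, array scalings, variance models, weights, blocks, Xist and the omission of single arrays or mice were varied. Of 614 repeated values for single genes, 537 kept direction and side of the threshold, 30 lost and 14 gained the call, and 33 turned sign. C1s1 kept its call throughout, with cerebral values from -3.66 to -3.28 and cerebellar values from -3.43 to -3.15. In cerebellar vessels 1 of 5 members was called, in place of 2, with no filter, with the mean of probe sets, with centred arrays, with quantile normalization or with only the arrays compared, and 1 to 2 without single arrays. Per mouse 1 to 3 were called without single mice. Over all alternatives 1 to 3 were called in cerebellar vessels and 2 to 3 in cerebral vessels (2 as reported in each). C1ra gained a cerebellar call with array weights (limma adjusted p = 0.0309) and with Xist as a covariate (adjusted p = 0.0159). Between regions in controls 1 was called, in place of 0, with the 75th percentile filter, array weights, the replicate block or a random replicate block for the mouse. The replicate number as block called C1ra in both regions (limma adjusted p = 0.0151 and 0.0144). The labels do not say whether the numbers pair mice between genotypes, so nothing is read from this about its strength.

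Sign turned for values near 0. Cd55 in cerebellar vessels was at 0.045 with the mean of probe sets, 0.0016 with centred and 0.019 with quantile-normalised arrays, and -0.32 to 0.15 without single arrays. In cerebral vessels it was at -0.12 to 0.30 without single arrays, and per mouse at -0.021 with array weights and -0.22 to 0.22 without single mice. Cerebellar minus cerebral, without single arrays, ran from -0.083 to 0.20 (C1ra), -0.20 to 0.070 (C1s1) and -0.023 to 0.039 (Cd59a) in controls, and from -0.26 to 0.20 (C1ra) and -0.092 to 0.28 (C1s1) in knockouts. Cerebellar minus cerebral knockout effects ran from -0.32 to 0.14 (C1ra), -0.029 to 0.36 (C1s1) and -0.43 to 0.098 (Cd55). The cause was not tested. The count of all called genes ranged over the alternatives from 310 to 1415 in cerebral (748 as reported) and 302 to 794 in cerebellar vessels (495), and from 237 to 765 per mouse (472), 322 to 1947 between regions in knockouts (797) and 79 to 1078 in controls (268), and 0 to 20 for the difference between regions (5).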
